A study of Mus musculus with 2 samples.

Results

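The weak regions described here are stretches of open chromatin of mouse megakaryocyte progenitors that are in the authors' replicated list but outside their conservative list. The replicated list, made from both libraries, held 140155 regions after summits sharing an interval were merged. Of these, 59317 regions, or 42.3% (95% Wilson interval 42.1 to 42.6), shared not 1 bp with any of the 80938 regions of the conservative list. The other 80838 replicated regions overlapped that list and serve as the comparison. The conservative list was thresholded on the irreproducible discovery rate (IDR), a score of how well the ranks of a peak match between replicates. The members were thus chosen by measured values, and their signal and IDR are given as a description only.

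Chromatin was probed by ATAC-seq, in which a transposase cuts and tags accessible DNA. Per the labels the primary cells were megakaryocyte progenitors from C57BL/6J mice, adult males of 5 to 6 weeks, with no genotype other than the strain named. There was 1 group of 2 biological replicates, each library made from 50000 cells, and both carry the same donor label. The spread between them may therefore be smaller than that between animals, and no condition could be compared.

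Megakaryocytes are the large bone marrow cells that release platelets, and their progenitors depend on transcription factors of the GATA, RUNX, ETS and TAL1 families. Open chromatin at promoters and at distal enhancers is where such factors bind, while CTCF marks boundaries and loop anchors in most cell types. PU.1 is an ETS factor best known in myeloid and B cells, and SP, NRF1, YY1, CRE-binding and NF-Y factors are common at promoters of widely used genes.

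The sequences shown first are 151 bases centred on the strongest summit, on the plus strand of mm10. They are the 3 strongest weak regions listed in both libraries, a strong region with a GATA motif, and the strongest with a PU.1 and with a CTCF motif. Each is named by the gene with the nearest protein-coding start site, which need not be its target. Capitals mark every match to the motifs searched.
Zeb2, chr2:45692931-45693081: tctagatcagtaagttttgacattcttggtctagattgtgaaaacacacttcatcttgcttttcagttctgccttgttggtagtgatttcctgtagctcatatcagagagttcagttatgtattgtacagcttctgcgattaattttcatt
Peli2, chr14:48189455-48189605: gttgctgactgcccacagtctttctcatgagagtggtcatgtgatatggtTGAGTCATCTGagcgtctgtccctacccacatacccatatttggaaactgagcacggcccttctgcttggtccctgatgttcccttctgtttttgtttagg
BC067074, chr13:113423943-113424093: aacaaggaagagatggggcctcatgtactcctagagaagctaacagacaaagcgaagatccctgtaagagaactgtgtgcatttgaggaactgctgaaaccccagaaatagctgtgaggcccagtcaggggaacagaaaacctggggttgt
Sox5, chr6:144152066-144152216: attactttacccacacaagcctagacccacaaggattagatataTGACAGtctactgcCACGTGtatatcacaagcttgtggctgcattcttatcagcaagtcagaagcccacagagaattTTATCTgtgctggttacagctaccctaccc
Ankrd50, chr3:38112703-38112853: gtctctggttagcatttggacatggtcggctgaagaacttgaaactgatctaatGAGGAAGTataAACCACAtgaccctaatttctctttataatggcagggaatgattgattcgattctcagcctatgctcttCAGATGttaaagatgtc
P4ha3, chr7:100279906-100280056: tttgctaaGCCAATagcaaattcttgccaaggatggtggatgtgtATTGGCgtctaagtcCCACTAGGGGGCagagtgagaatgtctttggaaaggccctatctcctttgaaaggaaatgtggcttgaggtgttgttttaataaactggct
The regions near Zeb2 and BC067074 held no match to any of the 20 motifs in this window. The Peli2 window held an AP-1/NF-E2 match, TGANTCA, that overlaps a TAL1 E-box match, CAGATG. In the Sox5 window lie a GATA match, AGATAA on the minus strand, a USF E-box, CACGTG, and a MEIS match, TGACAG. The Ankrd50 window held the PU.1 motif GAGGAAGT, which contains the ETS motif GGAAGT, then a RUNX match, TGTGGTT, on the minus strand, and a TAL1 E-box. The P4ha3 window held the CTCF motif beside a pair of NF-Y matches, GCCAAT.

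The next windows come from the promoters of 3 genes of platelets whose promoters held only a weak region. Selp encodes P-selectin, an adhesion receptor of platelet granules, Gp6 the platelet collagen receptor, and Tubb1 the beta-tubulin of the platelet's marginal band.
Selp, chr1:164115285-164115435: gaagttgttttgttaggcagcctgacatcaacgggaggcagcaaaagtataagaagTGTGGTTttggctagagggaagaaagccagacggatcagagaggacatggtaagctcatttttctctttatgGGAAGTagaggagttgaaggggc
Gp6, chr7:4397807-4397957: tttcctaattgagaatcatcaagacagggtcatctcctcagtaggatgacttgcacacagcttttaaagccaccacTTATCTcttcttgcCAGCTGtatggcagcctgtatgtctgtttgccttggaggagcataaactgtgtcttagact
Tubb1, chr2:174450453-174450603: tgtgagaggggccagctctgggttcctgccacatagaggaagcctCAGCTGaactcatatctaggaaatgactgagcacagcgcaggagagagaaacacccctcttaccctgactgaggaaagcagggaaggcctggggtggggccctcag
The Selp window held a RUNX and an ETS match. The Gp6 window held a GATA match and a CAGCTG E-box, and the Tubb1 window a CAGCTG E-box alone.

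The weak regions were low and narrow. The median signal of the strongest summit, the value the authors' caller gave it, was 4.09 in the weak regions, with 5% of them below 2.61 and 5% above 6.59. In the other replicated regions the median was 8.90. Only 150 weak regions, 0.253%, lay above that median, and the strongest reached 12.5. The median −log10 p was 11.9 in the weak regions and 55.2 in the others. Median width was 264 bp against 454 bp, and 87.9% of weak regions had 1 summit against 67.4%. Together the weak regions covered 17.97 Mb, and the other regions 42.96 Mb. The weak regions' signals recurred often. There were 18032 distinct values among the 59317 regions, and 1539 regions had a signal of 3.96, the most frequent value.

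**Figure D1:**
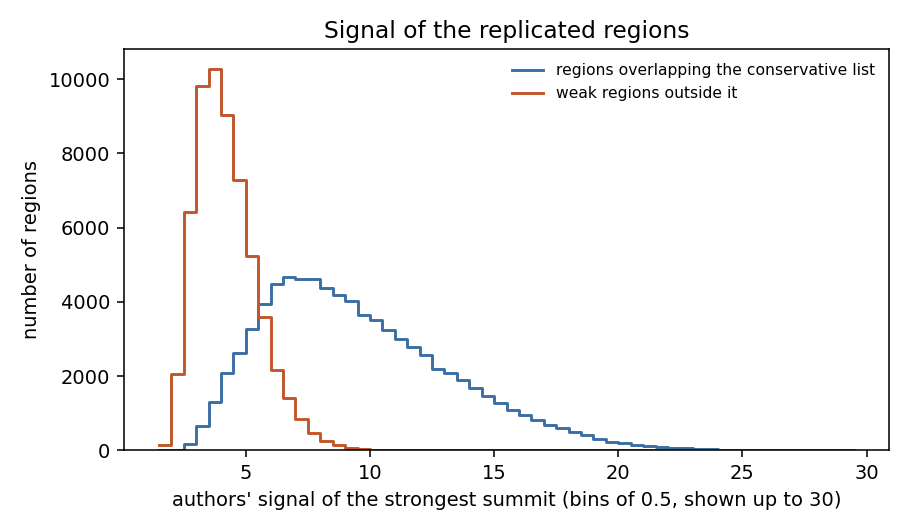
Number of replicated regions (vertical axis) by the authors' signal of the strongest summit (horizontal axis, bins of 0.5, shown up to 30), for the weak regions (orange) and the regions overlapping the conservative list (blue). The weak regions cluster around their median of 4.09, and the others spread widely around 8.90.

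The IDR divided the groups without overlap, as the rule fixes. The best −log10 IDR of a weak region started at 0.41, which was also the median, and 0 of them reached the value that corresponds to an IDR of 0.05. The weak regions nearest that line lay near Pik3cg, Crtc3 and Far1, with IDR values of 0.050009, 0.0500143 and 0.0500305 and signals of 5.95, 4.64 and 2.99. Just on the other side were regions near Rxra, Zfp592 and Rbm38, with IDR values of 0.0499982, 0.0499873 and 0.0499765 and signals of 3.90, 5.71 and 3.83. Signal did not separate these 6 regions.

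Fewer than 1 in 3 weak regions were found in the lists of both libraries taken separately. Each library has its own pseudoreplicated list, derived from that library alone. Of the weak regions, 18973, or 31.99% (31.6 to 32.4), overlapped such a region in both libraries, against 69.7% of all replicated regions and 97.4% of those in the conservative list. A further 10193 weak regions, 17.2%, were listed in replicate 1 only and 10588, 17.8%, in replicate 2 only. The remaining 19563, or 32.98%, were in neither library's list. The regions in neither list had a median signal of 3.41, and those in both a median of 5.03. At the stricter IDR-thresholded lists of each library, 3.28% of weak regions were found in replicate 1 and 2.31% in replicate 2. Only 63 weak regions, 0.106%, were in both of these stricter lists, against 64.0% of the other regions. The 3 strongest of the 63 lay near Zeb2, BC067074 and Hgd.

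Presence followed signal. Below a signal of 3, 7.25% (6.72 to 7.81) of weak regions were listed in both libraries. From 4 to 5 it was 34.3% (33.5 to 35.0), and at 8 or more it was 96.7% (94.8 to 97.9). Among the other regions the share was higher in every signal bin, from 67.8% below 3 to 99.9% at 8 or more.

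Where a weak region was listed in both libraries, its values there spread more than those of the other regions. Over the 18973 regions replicate 1 had a median signal of 4.48 and replicate 2 one of 4.54. Their mean was 4.51 ± 0.0422 (SD, n = 2). The log2 ratio of replicate 2 to replicate 1 had a median of −0.03 and an SD of 0.41 across weak regions. Across the other regions the SD was 0.20. Values differed more than 1.5-fold in 13.8% of the weak regions and 0.646% of the others, and more than 2-fold in 0.817% and 0.0394%. The share differing more than 1.5-fold rose with signal, from 4.0% of the weak regions below 3 to 24.0% from 6 to 8 and 68.9% at 8 or more. In the other regions at 8 or more it was 0.807%. The rule favours regions whose replicates disagree in rank, so this gap is partly fixed by the choice of members.

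The 10 weak regions of highest pooled signal in both libraries are given as a description, since a region of high signal misses the IDR threshold where its replicates disagree. A library value is the highest signal among that library's regions that overlap the member, so its summit may lie outside the member. Over all weak regions such values reached 18.6 in replicate 1 and 20.6 in replicate 2, above those of these 10. All 10 lay outside promoters, 6 of them intergenic and 4 in introns, and the higher library exceeded the lower by 1.56 to 2.27 times. Replicate 1 was higher at 6 of them and replicate 2 at 4. The intergenic region 576 kb from the start of Zeb2, a repressor with roles in blood and nerve development, at chr2:45692600-45693496, had a signal of 13.4 in replicate 1 and 7.03 in replicate 2. The intronic region of Peli2, an E3 ubiquitin ligase of innate immune signalling, at chr14:48189387-48189666, had 13.4 and 6.73. Both were high in replicate 1. The intronic region of Sox5, a SOX-family transcription factor, at chr6:144152012-144152286, had 6.06 in replicate 1 and 13.8 in replicate 2. The region near BC067074 at chr13:113423636-113424361 had 6.85 and 13.5, and that near Nr3c1, the glucocorticoid receptor gene, at chr18:39552874-39553167 had 6.59 and 12.4. These 3 were high in replicate 2. The regions near Nudt12, Prdm14, Ankrd50 and Zfp804b were higher in replicate 1, and that in an intron of Hgd was higher in replicate 2.

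**Figure D2:**
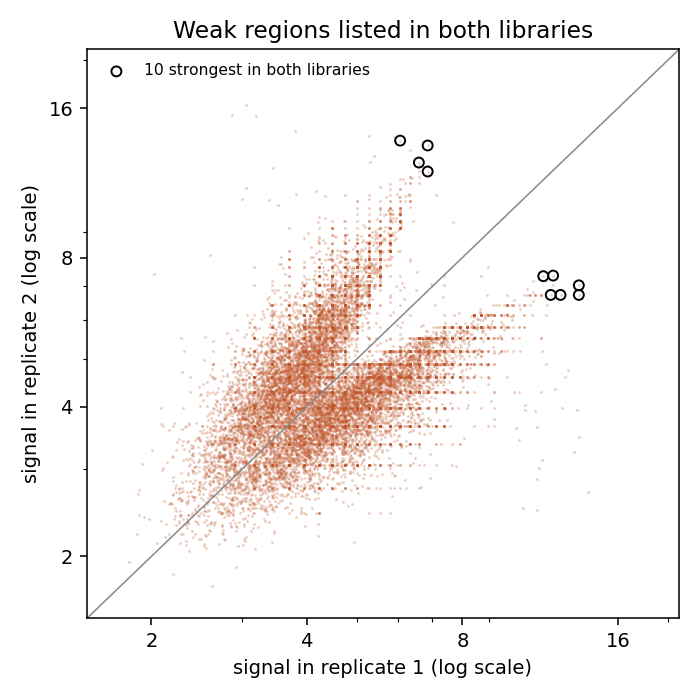
Signal in replicate 1 (horizontal axis, log scale) against replicate 2 (vertical axis, log scale) for the 18973 weak regions listed in both libraries (orange points), with the line of equality in grey. The points form 2 arms that leave the line as signal rises. The 10 strongest by pooled signal (black circles) lie 6 on the replicate 1 side and 4 on the replicate 2 side. Other points lie farther from the line, with log2 ratios from −2.37 to 2.44.

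Some strong weak regions were missing from a library's list altogether. Ranked by pooled signal, the first of those listed in replicate 1 only lay in an intron of the adhesion receptor gene Adgra1 (chr7:139861393-139861765). Its pooled signal was 9.23, and its signal in replicate 1 was 10.01. The first of those in replicate 2 only was an intronic region of Gbf1 whose nearest start site was that of Nfkb2, an NF-kappaB subunit gene (chr19:46254283-46254549). Its pooled signal was also 9.23, and its signal in replicate 2 was 11.01. In neither library's list were a region in an intron of Pdzrn4, with a pooled signal of 7.09, an intergenic region near Man1a, with 6.92, and one at the promoter of Banp, also with 6.92.

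The weak regions lay less often at promoters. By their strongest summit 9.01% (8.78 to 9.24), 5343 regions, had a protein-coding start site at most 1 kb away, against 19.02% (18.8 to 19.3) of the other regions. Introns held 45.4% of weak regions against 38.4%, intergenic sequence 40.9% against 38.3%, and exons 4.67% against 4.26%. Seen by class, weak regions made up 25.8% of replicated regions at promoters, 46.5% in introns, 43.9% in intergenic sequence and 44.6% in exons. The median distance to a start site was 20931 bp for weak regions and 14582 bp for the others. With a promoter window of 0.5 kb the weak share at promoters was 5.47%, and in the stronger 50% of weak regions it was 5.74%. On chromosomes 1 to 19 and X the weak share ran from 39.5% on chromosome 7 to 44.5% on chromosome 18, and on chromosome Y it was 33.3%, 11 of 33 regions.

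Most weak regions lay within 10 kb of a conservative region. No such gap was computed for other positions, so whether weak regions lie closer than open regions in general was not tested. The median gap to the nearest conservative region was 5001 bp, 20.3% were within 1 kb and 70.4% within 10 kb. The smallest gap was 43 bp, as in regions near Khdc1a, Aff3 and Tmcc2. At the other end 1243 weak regions were over 100 kb away. The 3 farthest were intergenic regions of chromosome Y near Rbm31y, Gm20812 and Gm21900, none of them listed in both libraries. The widest, 1584 bp in an intron of Sdhaf4, a succinate dehydrogenase assembly factor gene, had signals of 5.53 in replicate 1 and 5.38 in replicate 2.

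Among weak regions the promoter share was highest where signal was lowest, 18.8% (17.99 to 19.6) below 3, and fell to 5.45% (4.99 to 5.94) from 5 to 6 and 2.39% (1.40 to 4.04) at 8 or more. In the other regions of the same signal bin the share was higher in every bin, for example 15.8% (15.0 to 16.7) from 5 to 6. It fell with signal there too, from 31.1% (24.8 to 38.2) below 3 to 13.7% (13.2 to 14.2) from 6 to 8. At 8 or more the other regions had 20.9% (20.6 to 21.3). Regions of 1 bin were not alike in other respects: from 5 to 6 the median −log10 p was 16.6 in weak and 30.9 in other regions, and the median width 281 and 363 bp.

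**Figure D3:**
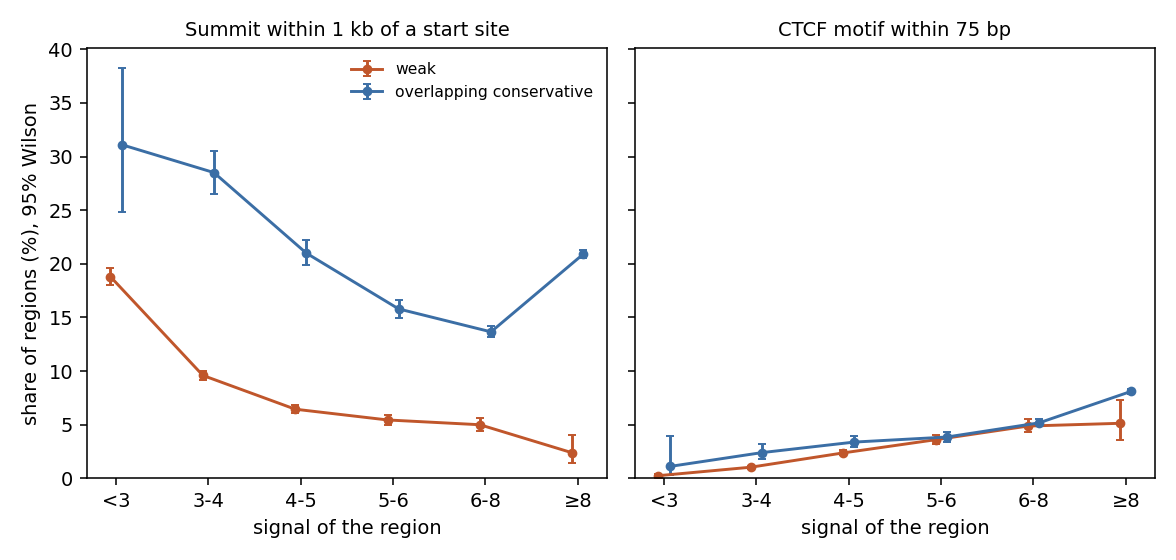
Share of regions (vertical axis, percent, with 95% Wilson bars) by signal bin (horizontal axis) for weak regions (orange) and regions overlapping the conservative list (blue). Left, summits within 1 kb of a start site; right, windows with a CTCF motif. The promoter curves stay apart, while the CTCF curves rise together and meet between 5 and 8.

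Over all locations and signals the shares of weak regions with ETS, PU.1 and RUNX matches were near those of the other regions. The shares with CTCF and promoter motifs were lower. An ETS match lay within 75 bp of the summit in 25.9% (25.5 to 26.2) of weak regions and in between 24.7 and 25.3% (Wilson interval) of the others, against 8.45% of windows 1 kb away that touched no replicated region. PU.1 matches were found in 7.34% (7.14 to 7.56) of weak regions, 6.71% of the others and 0.808% of the windows 1 kb away. RUNX matches were found in 8.26% of weak regions, 8.07% of the others and 3.62% of those windows. At like signal the weak regions had more ETS and PU.1 matches, with separate intervals in each bin from 3 to 6. From 4 to 5 the ETS shares were 26.98% and 24.4%, and the PU.1 shares 8.09% and 6.08%. ETS intervals overlapped in the other bins, and PU.1 intervals below 3 and from 6 to 8. RUNX intervals were separate only from 3 to 5, with 8.88% and 7.49% from 4 to 5. GATA matches were slightly more frequent in weak regions, 13.9% (13.7 to 14.2) against 11.95% (11.7 to 12.2), with 8.50% in the windows 1 kb away. By signal bin the GATA intervals overlapped except from 3 to 4, where the shares were 14.3% and 12.1%. From 5 to 6 the shares were 13.5% and 13.9%. GATA intervals also overlapped in introns, 15.9% and 15.3%, and in exons, but not in intergenic sequence, 13.7% and 12.5%. AP-1/NF-E2 matches, the site type bound by the platelet-gene activator NF-E2, were in 7.49% and 7.04%, with 4.29% in the windows. C/EBP (TTGCNNAA), KLF (CACACCC), MEIS and CAGCTG E-box matches differed by under 0.5 percentage points between weak and other regions. A match describes the letters and does not show binding.

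The CTCF motif was in 2.03% (1.92 to 2.15) of weak regions and 6.64% (6.47 to 6.81) of the others, and in 0.0328% of the windows 1 kb away. It tracked signal in both groups, from 0.255% of weak regions below 3 to 4.88% (4.31 to 5.52) from 6 to 8. From 6 to 8 the other regions had 5.18% (4.87 to 5.51), an interval that overlaps the weak one. At 5 to 6 the shares were 3.61% and 3.86%, again with overlapping intervals. Below 5 and at 8 or more the weak regions had the lower share, with overlapping intervals below 3. The stronger 50% of weak regions had 3.23%. In each library's own lists the regions outside its IDR-thresholded list had 3.14% without replicate 2 and 3.22% without replicate 1.

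Motifs typical of promoters were also rarer in weak regions. The SP motif GGGCGG was in 6.78% (6.58 to 6.98) against 14.8%, with 2.20% in the windows 1 kb away. NRF1, GCGCATGCG, was in 0.0809% against 0.383%, YY1, AAGATGGCG, in 0.120% against 0.458%, and CRE, TGACGTCA, in 0.297% against 0.737%. NF-Y matches were in 4.97% against 6.96%. The NRF1, YY1, CRE and NF-Y shares were not split by location, and a smaller share of weak regions lay at promoters. Within promoters the SP motif was still rarer, 25.4% (24.2 to 26.6) of weak against 48.1% (47.3 to 48.9) of other summits. ETS matches were also rarer there, in 855 of the 5343 weak regions (15.0 to 17.0%) against 20.7% (20.1 to 21.4), while intergenic summits had 28.2% (27.7 to 28.8) against 26.4% (25.95 to 26.9). GATA matches were more frequent in weak promoters, 6.40% (5.78 to 7.09) against 4.0% (3.70 to 4.32). Weak promoter windows had a median GC content of 58.3% and 6 CpG, and the others 63.6% and 11 CpG. Over all locations the medians were 49.7% and 51.7% GC.

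**Figure D4:**
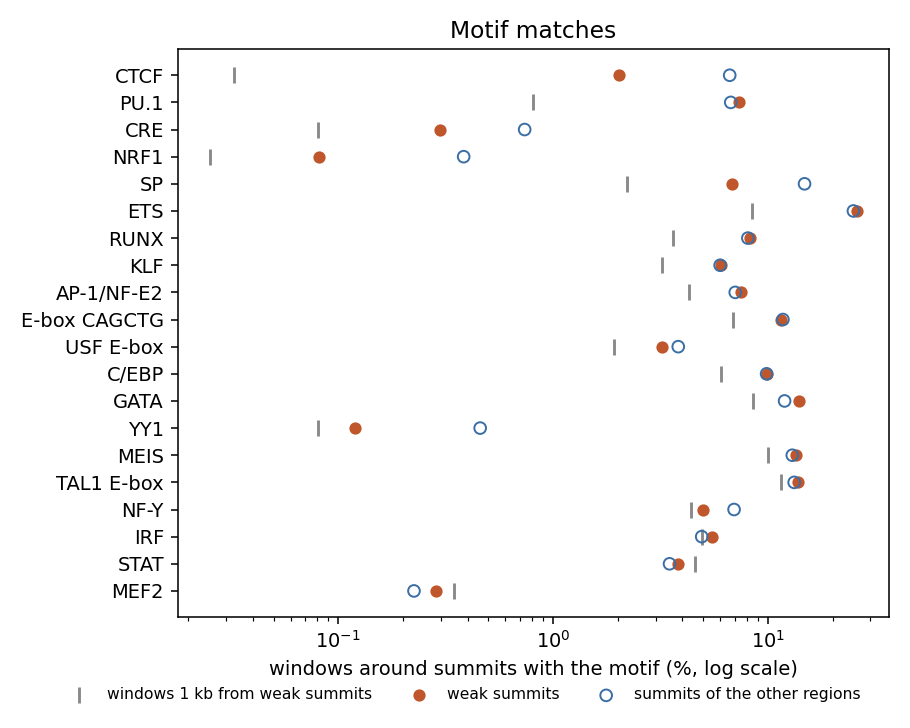
Share of windows of 151 bp with each of 20 motifs (horizontal axis, percent, log scale) at weak summits (orange), at the summits of the other regions (open blue circles) and in windows 1 kb from weak summits (grey bars). ETS, PU.1, RUNX and C/EBP shares nearly coincide in weak and other regions, while CTCF, SP, NRF1, YY1 and CRE shares are lower in weak regions.

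Summits in masked bases of the reference, mostly repeats, made up 13.2% (12.98 to 13.5) of weak regions and 9.40% (9.20 to 9.61) of the others. Windows 1 kb away had 25.9% and 26.1%. At signals of 5 to 6 the shares were 14.1% and 10.9%.

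Of 21938 protein-coding genes, 13386, or 61%, had a conservative region within 1 kb of a start site, and 4949, or 22.6%, had a weak one. In 1731 genes, 7.89% of all and 34.98% of those with a weak region, the promoter held no conservative region beside it, and in 749 of these, 43.3%, it was listed in both libraries. The number was 980 where only the stronger 50% of weak regions counted. Of the 8552 genes without a conservative region 20.2% had a weak one.

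Both megakaryocyte lists were counted in the same way. Among 28 regulators, the transcription factors and receptors of the lineage, 27 had a conservative promoter region and 0 had only a weak one, with a Wilson interval of 0 to 12.1% that contains the share of all genes. Among 38 megakaryocyte and platelet genes, 28 had a conservative region, 7 only a weak one (18.4%, interval 9.22 to 33.4%, against 7.89% of all genes) and 3 neither, namely Clec1b, Ppbp and Vwf. The intervals of the lists overlap, and their difference was not tested. The 7 genes encode surface receptors, granule proteins and cytoskeletal proteins. Conservative promoter regions were also at 26 of 28 erythroid, 15 of 20 granulocyte, 15 of 20 monocyte, 9 of 20 B cell and 10 of 22 T and NK cell genes. Neuronal genes had 13 of 20, muscle genes 6, germ cell genes 4 and liver genes 2. Open promoters therefore did not by themselves single out the labelled cell type.

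Of the receptors, the Selp promoter region (chr1:164115069-164115465), 0.096 kb from the start site, had signals of 4.04 and 4.34 in replicates 1 and 2, with a mean of 4.19. Both libraries listed it at like values. The Gp6 region (chr7:4397766-4397982) was listed in replicate 2 only, at 3.67. The region at Gp1bb (chr16:18621572-18621797), a subunit of the von Willebrand factor receptor, was in neither library's list and had a pooled signal of 3.18. Its summit also lies within Sept5 and Gm49601, so it cannot be given to Gp1bb alone.

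Of the granule and cytoskeletal genes, Mmrn1, encoding the factor V carrier multimerin, had a region at chr6:60944651-60945001 listed in replicate 2 only, at 5.0. The Tubb1 region (chr2:174450396-174450756) had 2.44 in replicate 1 and 3.72 in replicate 2, so replicate 2 was 1.52 times higher. The regions at Mylk, myosin light chain kinase, and Myl9, a myosin light chain, were in neither list, with pooled signals of 4.12 and 2.54. Of these 7 promoters, those of Selp and Tubb1 were thus in both libraries.

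**Figure D5:**
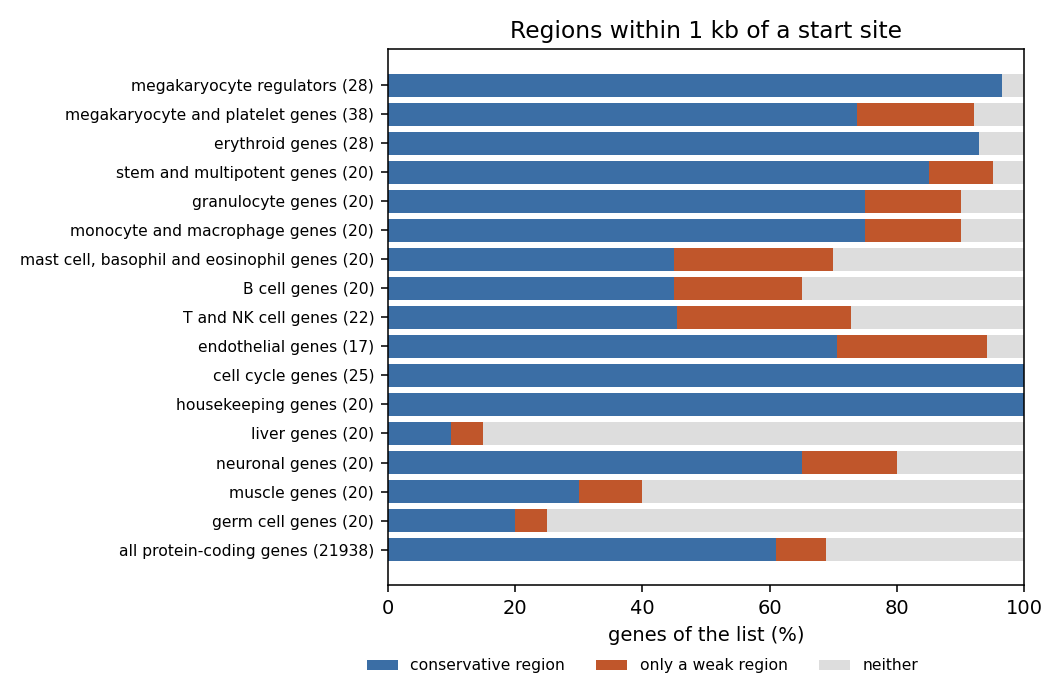
Share of the genes of each list (horizontal axis, percent; number of genes in brackets) with a conservative region within 1 kb of a start site (blue), with only a weak region (orange) or with neither (grey). Regulators, erythroid, cell cycle and housekeeping genes have no orange segment, and platelet, mast cell, lymphoid and endothelial genes have the longer ones.

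Other lists also held promoters with a weak region alone. Among cell cycle, housekeeping and erythroid genes there were none, in 25, 20 and 28 genes. The T and NK cell list had 6 of 22, among them Cd2, an adhesion receptor, listed in replicate 1 only at 6.49, and Zap70, a T cell receptor kinase, at 3.95 and 3.97. The mast cell, basophil and eosinophil list had 5 of 20, among them Cpa3, the mast cell carboxypeptidase, at 4.08 in replicate 1 and 6.44 in replicate 2, and Prg2, a granule protein, at 5.93 and 4.28. The B cell list had 4 of 20, among them Vpreb3, a gene of B cell precursors, at 4.99 and 3.44. These list shares rest on few genes. The Wilson intervals of the cell cycle, housekeeping and erythroid lists contain the 7.89% of all genes. Those of the T and NK cell list (13.2 to 48.2%), the mast cell list (11.2 to 46.9%) and the B cell list (8.07 to 41.6%) lie above it. The interval of the platelet genes does too, so a share above that of all genes was not particular to them. These differences were not tested.

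The endothelial list had 4 of 17 genes, with an interval of 9.56 to 47.3% that also lies above the 7.89% of all genes. Robo4, an endothelial guidance receptor, had the strongest such region of the named genes (chr9:37401785-37402147), with 5.15 in replicate 1 and 9.29 in replicate 2. Tie1, an endothelial receptor kinase, had 7.11 and 3.67, the reverse order. Emcn, endomucin, had 5.01 and 6.10. In the stem and multipotent list 2 of 20 genes qualified, Slamf1, the CD150 gene, at 5.10 and 7.19, and Procr, the endothelial protein C receptor gene, at 4.62 and 4.50. Granulocyte and monocyte lists had 3 of 20 each. They were Lcn2, Padi4 and Prtn3 in the first and Cd14, Marco and Csf1r in the second. The intervals of the stem, granulocyte and monocyte lists contain the share of all genes. The lists of unrelated tissues had 3 of 20 neuronal, 2 of 20 muscle, 1 of 20 liver and 1 of 20 germ cell genes, and the Wilson interval of each contains the 7.89% of all genes.

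Weak regions were also counted around genes. At least 1 lay within 50 kb of the 5′ end in 83.6% of protein-coding genes, with a mean of 3.68 per gene. Over the 66 megakaryocyte genes matched the mean was 6.03, with 5.86 in the regulators and 6.16 in the platelet genes. Conservative regions were also more numerous there, with means of 11.5 and 9.16 against 6.29 over all genes, so the higher counts were not particular to weak regions. The chemokine receptor gene Cxcr4 had 17 weak regions beside 12 conservative ones, 4 of the 17 listed in both libraries and 5 in neither. Myb, a progenitor transcription factor gene, had 12 weak and 12 conservative regions. Runx1, Lmo2, Gp1ba and Tbxas1 had 11 weak regions each. Over all genes St6galnac3, a sialyltransferase gene, had the most, 19 weak beside 7 conservative regions, followed by Adipoq, Ggta1 and Gna12 with 18 each.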

How the data were processed

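ATAC-seq peak lists on mm10 were analysed. Per the deposited file descriptions, lists came from the alignments of one library or of both. The authors' lists give a signal per summit, a −log10 p, and, in the ranked list, a score that is the −log10 of the global IDR. Not given in the sources used here are the peak caller, duplicate handling, read shifts for the transposase and any scaling between libraries, which affect the number of regions and the position of summits. The depth of the libraries is unknown.

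Summits of the same interval were merged, and the strongest stands for the region. Overlap was at least 1 bp. Location used GENCODE M21 on GRCm38.p6, the assembly of mm10 (54361 start sites), in the order promoter (1 kb), exon, intron, intergenic. A gene's promoter region is one whose interval lies within 1 kb of a start site. Motifs were searched on both strands within 75 bp of the summit and in like windows 1 kb away. The tools were Python 3.11.15, numpy 2.4.6 and pandas 2.3.3, checked on simulated intervals and planted motifs.

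No p-values were computed, since regions and genes are not replicates. Wilson intervals (95%) cover counting error only. The members, the 16 gene lists, the 20 motifs and the signal bins were chosen with earlier results of these data known. The rule named the genes nearest the 10 strongest members in both libraries, megakaryocyte list genes with only a weak promoter region, up to 3 genes from each other list, the genes with most members nearby, and the strongest, farthest and widest members. The Ankrd50, Gp6 and Tubb1 sequences were chosen after their values were seen. Alternatives were other lists, overlaps and windows, the stronger 50% of members, and each library alone. An item withheld from the text is not reported here.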

Additional observations from a re-analysis of the deposited data

How the results depend on the processing

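No paired analysis was possible because there is 1 group. With the IDR-thresholded list in place of the conservative one the weak share was 42.8% and the CTCF share 2.16%, and with the pseudoreplicated list in place of the replicated one the weak share was 40.2%. In the stronger 50% of weak regions, 49.9% were listed in both libraries, 5.74% lay at promoters and 14.1% in masked bases. Over those listed in both libraries the mean of the 2 library medians of signal was 4.80. In the stronger 50% ETS matches were in 27.2% and CTCF matches in 3.23%, and 980 genes had only a weak promoter region. Megakaryocyte genes then had 2.35 weak regions within 50 kb, against 1.64 over all genes. By each library's IDR-thresholded list 0.106% were in both. Promoter windows of 0.5 and 2 kb gave 5.47% and 13.02%, and masked bases in place of summits 14.3%. GATA shares were 10.4% and 16.9%, and ETS shares 20.9% and 29.2%, with 50 and 100 bp each side. Windows of 20 and 100 kb gave 2.48 and 10.6 weak regions per megakaryocyte gene, against 1.56 and 7.18 over all genes.

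Leaving out a replicate meant taking the other library's pseudoreplicated list less its own IDR-thresholded list. The weak share was then 45.5% to 47.4%, the promoter share 10.2% to 10.6%, the masked share 12.1% to 12.3%, the GATA share 13.4% to 13.8%, the ETS share 25.3% to 26.1% and the CTCF share 3.14% to 3.22%. The CTCF share without replicate 1 (3.22%) and without replicate 2 (3.14%) was over 1.5 times the 2.03% of the weak regions. The cause of these shifts was not tested. With 2 libraries, values per library have no error of their own, and unknown depth limits what absence from a list can show.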

Other observations

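The weak regions listed in replicate 1 only and those listed in replicate 2 only differed in sequence and position. ETS matches were in 28.6% (27.8 to 29.5) of the 10193 regions of replicate 1 only and in 22.5% (21.7 to 23.3) of the 10588 of replicate 2 only. PU.1 matches were in 8.12% (7.61 to 8.67) and 6.29% (5.84 to 6.77). GATA matches ran the other way, in 11.7% (11.1 to 12.4) and 15.7% (15.0 to 16.4), and so did CTCF matches, in 2.03% (1.77 to 2.32) and 2.72% (2.43 to 3.05). Promoters held 10.5% (9.88 to 11.1) of the first and 6.51% (6.05 to 6.99) of the second. Among the regions overlapping the conservative list, 933 were listed in replicate 1 only and 895 in replicate 2 only. There GATA shares were 9.32% (7.62 to 11.4) and 9.16% (7.44 to 11.2), and PU.1 shares 5.36% (4.09 to 6.996) and 5.92% (4.56 to 7.66), with overlapping intervals. ETS shares, 24.1% (21.5 to 27.0) and 20.4% (17.9 to 23.2), also had overlapping intervals but ran in the same direction as in the weak regions. These sets are far smaller than the weak ones, so overlapping intervals here do not show that a difference was particular to the weak regions. CTCF shares were 6.65% (5.22 to 8.43) and 11.2% (9.27 to 13.4), and promoter shares 11.8% (9.88 to 14.0) and 7.82% (6.24 to 9.77). These 2 differed in the same direction as in the weak regions, so they were not particular to the weak regions. In the weak regions AP-1/NF-E2 shares were 7.40% and 7.35%, with overlapping intervals. The median signals in their own library were 4.03 and 4.28. Each set comes from 1 library, so the libraries and anything that differs between them cannot be told apart, and these differences were not tested. Replicate 1 is the library whose label names 2 sequencing instruments.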
